A study of Mus musculus with 7 samples.

Results

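Axoglial adhesion and paranode genes code for proteins of the contact between an axon and an oligodendrocyte, the myelinating cell of the brain. Some of them hold the cells together, and others anchor the contact to the cytoskeleton. The 10 genes described here were taken by symbol from the 27998 genes of the count table, and all 10 were found: Nfasc, Cntn2, Ncam1, Nrcam, Cadm4 and Jam3, which code for membrane adhesion proteins, and Ank2, Ank3, Epb41l3 and Sptbn1, which code for proteins of the membrane skeleton. They were measured by droplet single-cell RNA sequencing of the 3′ ends of transcripts in oligodendrocyte lineage cells (OLCs) sorted from the cortex of P90 mice (11-14 weeks, both sexes, C57BL/6-B6CBA mixed background). The labels name the motor and cingulate cortex.

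There were 3 libraries, 1 per condition. The control dOLCs were TdTom+ cells of Emx1-Cre:Sox10-GFP-TdTom mice, in which Cre from the Emx1 locus marks cells of the dorsal (cortical) lineage and turns the Sox10-driven reporter from GFP to TdTom. The control vOLCs were the GFP+ cells of the same genotype, of ventral origin. The ectopic vOLCs were the GFP+ cells of mice that carried Sox10-GFP-DTA beside Emx1-Cre and Sox10-GFP-tdTom. In these mice diphtheria toxin A kills most, though per the study not all, dorsally derived OLCs, and cells without Emx1-Cre activity remain in the cortex. All 3 groups carried Emx1-Cre and the Sox10-driven reporter. Control mice (n = 4) and ablated mice (n = 2) cannot be told apart within a library, so that no comparison has replicates and no test was made. Every interval below is a 95% interval that covers counting error only (exact Poisson for a level, exact binomial for a ratio of 2 levels). The spread between mice is not in it.

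The kept cells numbered 5804 in the control dOLCs, 925 in the control vOLCs and 2562 in the ectopic vOLCs, with a median of 3489.5, 5022 and 5318.5 unique transcript counts (UMIs) per cell. The first number exceeds the 3000 cells loaded for a sample by the protocol, and whether that library joins several loadings is not given in the sources used here. Between 6 and 24 cell barcodes were shared by a pair of libraries. Cell types are the clusters that the authors deposited: oligodendrocyte precursor cells (OPCs), committed precursors with newly formed and early myelin-forming oligodendrocytes (COP/NFOL/MFOLa), later myelin-forming cells (MFOLb), and mature oligodendrocytes (MOL1, MOL2a and b, MOL5/6a to d). The labels held in the sums of cells: 6 OPC markers summed to between 11108 and 13855 CPM in OPCs and between 1898 and 2009 CPM in MOL5/6, and 7 oligodendrocyte markers to between 30661 and 34830.1 CPM in MOL5/6. The MOL5/6 cells were 3777, 561 and 1842 in the control dOLCs, control vOLCs and ectopic vOLCs, and the OPCs were 853, 121 and 330. A level is the sum of a gene's UMIs over the cells of a cluster per 1000000 UMIs of those cells (CPM), and a difference is the log2 ratio of 2 such levels. A gene passed the filter where a pair of libraries held at least 50 UMIs of it and at least 10% of the cells of 1 of them had one.

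Along a myelinated axon the contact is divided into domains. At the paranode, next to the node of Ranvier, the glial form of neurofascin (Nfasc) binds contactin and Caspr on the axon. 4.1B (Epb41l3), ankyrins (Ank2, Ank3) and spectrins (Sptbn1 codes for the βII chain) tie the complex to the cytoskeleton, on the axonal or the glial side. Contactin-2 (Cntn2, also TAG-1) stands at the juxtaparanode, and Cadm4 and Jam3 serve cell contact along the internode and between glial membranes. Ncam1 and Nrcam code for adhesion molecules of the immunoglobulin superfamily that are also abundant in neurons. Counts at the 3′ end do not tell apart the isoforms of a gene, such as the glial and neuronal forms of neurofascin.

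Nfasc and Cntn2 are neighbours on the minus strand of chromosome 1 (GRCm38, GENCODE M21): Cntn2 spans chr1:132509427-132543256 and Nfasc chr1:132564690-132741797, with 21433 bases and no annotated gene between them. Their levels differed in the same order between the libraries, so that their promoters are shown, beside one of Sptbn1, whose level had that order too, and that of Cadm4, which had another. Of the 10 genes, 7 had a promoter in the RefSeq table (GRCm38.p6), with 14 start sites in all. The 250 bases before a start site were searched for ACAAAG and ACAATG (both of the type that SOX proteins bind) and for CTGGNAC (like the core of the site described for MYRF), on both strands. Sequences are given 5′ to 3′ along the gene, with matches in capitals. The stretch of Cntn2 stops after 88 bases, where an exon of another Cntn2 transcript is annotated, and the other stretches overlap no annotated exon of their gene.
Cntn2, chr1:132542941-132543028, minus strand: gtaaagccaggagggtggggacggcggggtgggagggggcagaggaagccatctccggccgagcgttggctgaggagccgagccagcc
Nfasc, chr1:132642859-132643108, minus strand, at a start site inside the gene: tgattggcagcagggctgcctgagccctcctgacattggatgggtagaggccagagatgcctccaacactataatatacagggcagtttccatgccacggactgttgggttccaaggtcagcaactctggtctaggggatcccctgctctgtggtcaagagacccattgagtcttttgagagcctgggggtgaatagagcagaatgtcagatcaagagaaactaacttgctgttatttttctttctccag
Sptbn1, chr11:30198258-30198507, minus strand, at a start site inside the gene: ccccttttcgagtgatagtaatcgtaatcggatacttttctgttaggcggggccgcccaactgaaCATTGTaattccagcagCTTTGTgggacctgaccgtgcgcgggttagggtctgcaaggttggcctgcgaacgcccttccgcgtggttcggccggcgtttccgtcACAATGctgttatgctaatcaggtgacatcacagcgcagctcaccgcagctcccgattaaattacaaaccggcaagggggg
Cadm4, chr7:24481773-24482022, plus strand: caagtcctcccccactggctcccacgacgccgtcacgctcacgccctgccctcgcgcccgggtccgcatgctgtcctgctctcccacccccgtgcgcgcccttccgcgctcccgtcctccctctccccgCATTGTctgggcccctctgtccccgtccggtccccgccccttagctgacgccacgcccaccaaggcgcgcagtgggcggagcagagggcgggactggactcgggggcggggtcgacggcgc
The Cntn2 promoter and both Nfasc promoters held none of these letters. The Sptbn1 promoter shown held ACAATG at 2 places and ACAAAG at 1, and that of Cadm4 held ACAATG at 1. Over all 32851 promoters of the table, 16.5% held ACAAAG, 10.7% ACAATG and 16.1% CTGGNAC in the same window, and of the 14 promoters of these genes 3, 4 and 1 did. GC content over the 250 bases was 61.2% for Cntn2, 50.4% for this Nfasc promoter, 55.6% for this Sptbn1 promoter and 75.2% for Cadm4, with a median of 52.4% over the table. The matches describe letters in a window and are not known sites. The Nfasc stretch ends in pyrimidines and AG, as the end of an intron does, and whether transcription starts there was not checked.

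The genes followed different courses from precursor to mature oligodendrocyte. The clusters were made from the same cells and genes, so that these courses are a description without a test. Nfasc had its highest level in the COP/NFOL/MFOLa cells. In the control dOLCs it stood at 157 CPM in OPCs, 1725 CPM in the 76 COP/NFOL/MFOLa cells and 375 CPM in MOL5/6. The same peak was present in the other libraries, at 1354 CPM in 13 cells of the control vOLCs and 1252 CPM in 22 cells of the ectopic vOLCs. Ank3, which codes for ankyrin-G, also had its highest level in these cells in the control dOLCs, with 612 CPM against 231 CPM in OPCs and 505 CPM in MOL5/6c. In the other libraries its level was highest in MOL5/6c, at 524 CPM in the control vOLCs and 486 CPM in the ectopic vOLCs, against 470.5 and 442 CPM in the COP/NFOL/MFOLa cells. Jam3, a junctional adhesion molecule, measured 949, 849 and 904 CPM in the COP/NFOL/MFOLa cells of the control dOLCs, control vOLCs and ectopic vOLCs, against 465, 522 and 406 CPM in their OPCs. Mature clusters came near these levels. Jam3 was at 913 CPM in MOL5/6a of the control dOLCs, and at 805 and 824 CPM in MOL2a of the control and ectopic vOLCs.

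Cntn2, Ank2 and Epb41l3 were higher in MOL5/6 than in OPCs. Ank2 was not particular to mature cells: in the control dOLCs it had 586 CPM in the myelin-forming MFOLb cells and 571 CPM in MOL5/6. In the control dOLCs the log2 ratio of MOL5/6 to OPCs was 2.34 (2.18 to 2.51) for Cntn2, 1.97 (1.79 to 2.16) for Epb41l3 and 1.44 (1.31 to 1.56) for Ank2, with 1.26 (1.11 to 1.40) for Nfasc and 0.90 (0.78 to 1.02) for Ank3. Epb41l3 had its highest levels in MOL2b cells, with 525 CPM in the control dOLCs and 631 CPM in the ectopic vOLCs. In the control vOLCs, which held 6 such cells, it had 402 CPM there and 472 CPM in MOL5/6d. Ncam1 and Cadm4 had the opposite course, with ratios of −0.68 (−0.78 to −0.58) and −0.66 (−0.75 to −0.56). Nrcam was a gene of the precursors. Its level in the control dOLCs was 100.2 CPM in OPCs, 68.2 CPM in COP/NFOL/MFOLa, 34.0 CPM in MFOLb and 4.18 CPM in MOL5/6, and the other libraries gave 137 and 97.3 CPM in OPCs and 1.71 and 1.89 CPM in MOL5/6. For Sptbn1 the ratio of MOL5/6 to OPCs was −0.06 (−0.21 to 0.09) in the control dOLCs, −0.53 (−0.90 to −0.15) in the control vOLCs and −0.88 (−1.10 to −0.65) in the ectopic vOLCs, and that of COP/NFOL/MFOLa to OPCs in the control dOLCs was 0.41 (0.09 to 0.72).

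**Figure D1:**
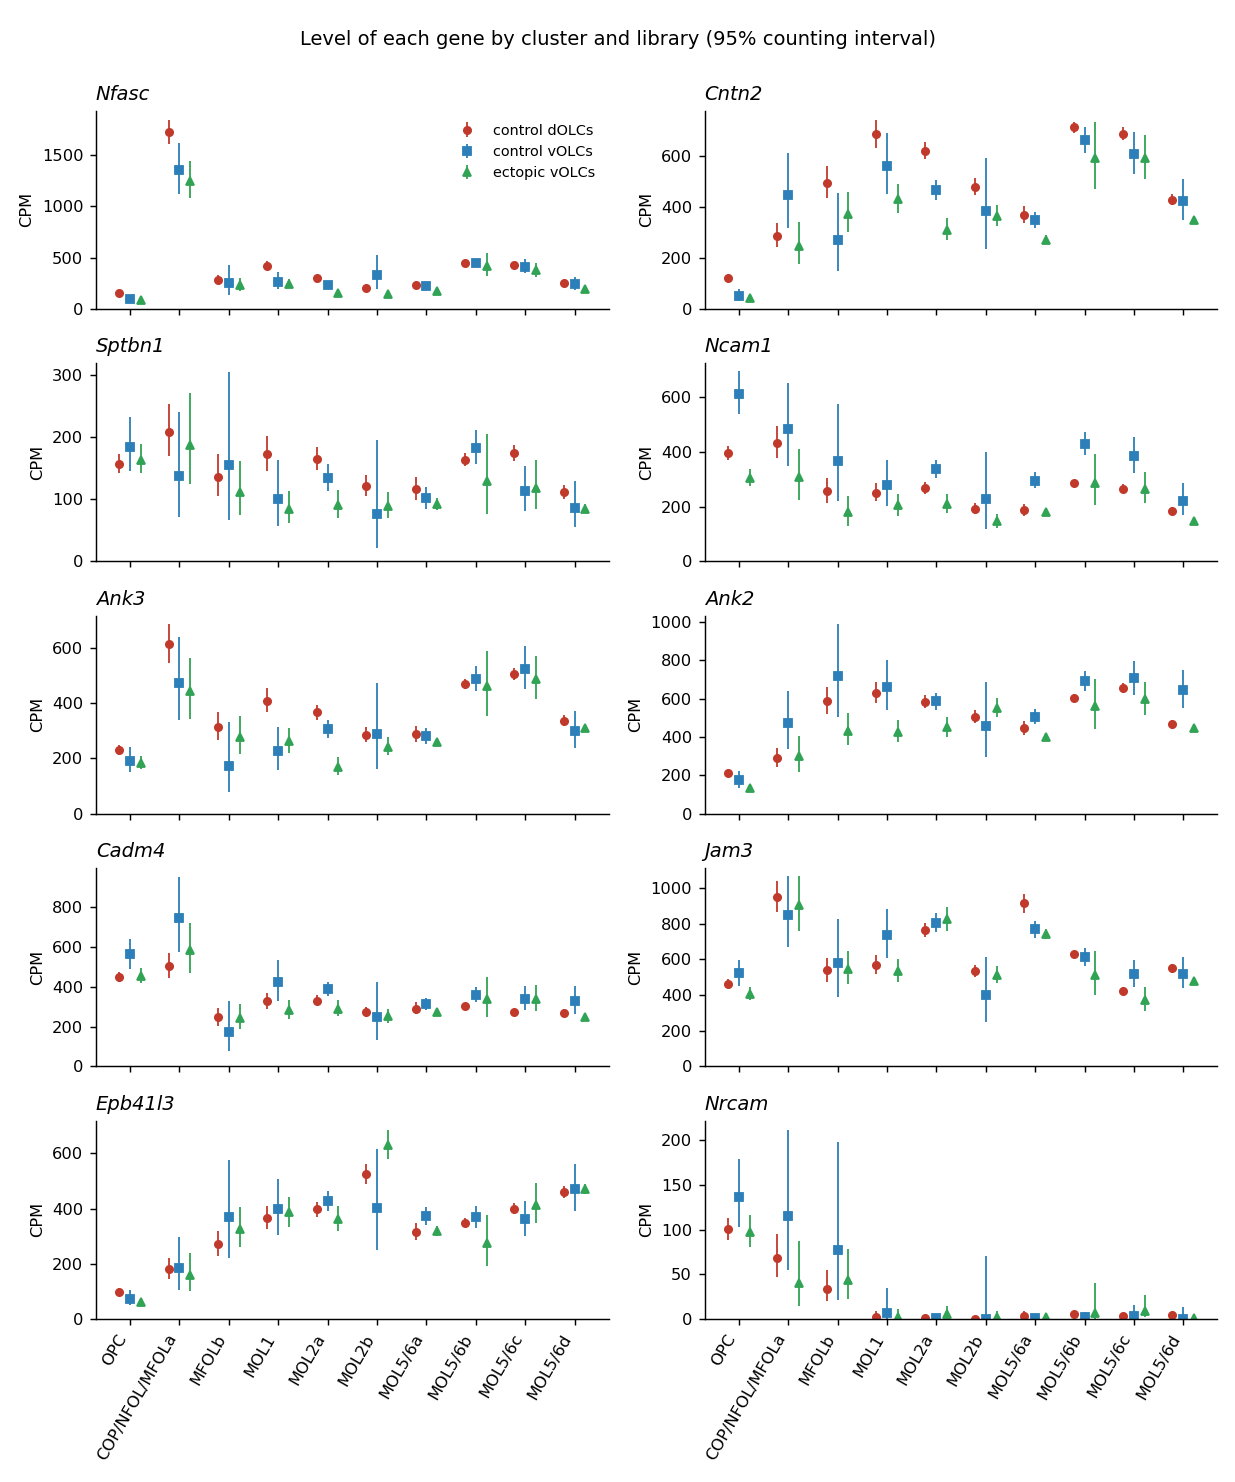
Level of each of the 10 genes in CPM (vertical axis) in 10 of the 11 clusters (horizontal axis, from precursors to mature cells; the cycling OPCs, 17, 3 and 11 cells, are left out). Symbols are the 3 libraries and bars the 95% Poisson interval of the count. Nfasc peaks in COP/NFOL/MFOLa, at 1725, 1354 and 1252 CPM, Nrcam is near 0 in every mature cluster, and Ncam1 is highest in the control vOLCs in the OPCs.

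The course over the 22 sums of at least 50 cells (1 cluster of 1 library each) was compared between genes by Pearson's r of log2(CPM + 1). The points share libraries and cell types, and r is a description. Nfasc was most like another of the 10 genes, Ank3 (r = 0.91), followed by Prickle1 (0.91) and Plekha1 (0.89). Cntn2 was most like Plekhh1 (0.99), Myrf, which codes for a transcription factor of myelin genes (0.98), and Lpgat1 (0.98). Ank2 went with Sort1 (0.98), Fgfr2 (0.97) and Dusp3 (0.97). Epb41l3 went with Ermn, which codes for the cytoskeletal protein ermin of mature oligodendrocytes (0.98), Carhsp1 (0.98) and Litaf (0.98). Ncam1 (0.89) and Cadm4 (0.93) had the same first gene, Lrrn1. Nrcam was most like Bri3bp (0.96), Ank3 like Phldb1 (0.94), Sptbn1 like Sidt2 (0.90) and Jam3 like Lamp1 (0.89).

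The comparison of the ectopic vOLCs with the control dOLCs asks how cells that take the place of the ablated ones compare with those they replace. In MOL5/6, the largest class, Nfasc, Cntn2, Sptbn1, Ncam1, Ank3 and Ank2 were lower in the ectopic vOLCs, by log2 ratios from −0.96 to −0.39, while Cadm4, Jam3 and Epb41l3 lay between −0.12 and 0.08. The signs of these 3 depended on the processing: with TMM factors, which shift every gene by 0.15, Cadm4 was at 0.026 and Jam3 at 0.14, and in cells with 3000 to 6000 UMIs Epb41l3 was at −0.12. Nfasc was at 375 CPM (365 to 385) in the control dOLCs, 321 CPM (301 to 342) in the control vOLCs and 193 CPM (184 to 201) in the ectopic vOLCs. The 3 intervals do not overlap, and the ectopic level was lowest. Counting intervals are narrow at this depth. Of 5218 genes past the filter, 1885 had an interval of the ratio of ectopic vOLCs over control dOLCs below 0 and 1403 above 0. For Nfasc the log2 ratio of ectopic vOLCs over control dOLCs was −0.96 (−1.04 to −0.89), that to control vOLCs −0.74 (−0.85 to −0.62), and that of control vOLCs to control dOLCs −0.22 (−0.32 to −0.12). These 3 comparisons share their libraries.

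Cntn2 had the same order, with 607 CPM in the control dOLCs, 490 CPM in the control vOLCs and 328 CPM in the ectopic vOLCs. Its ratios were −0.89 (−0.94 to −0.83), −0.58 (−0.67 to −0.49) and −0.31 (−0.39 to −0.23), in the order given for Nfasc. The middle value lies just inside the 1.5-fold limit (0.58 on the log2 scale). Both genes were among those that the study had already picked on these cells, and the same holds for Ncam1, Ank2 and Ank3, so that their direction is not independent evidence.

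Among the genes of the membrane skeleton, Sptbn1 had levels of 150.5, 128 and 89.0 CPM, and a ratio of ectopic vOLCs over control dOLCs of −0.76 (−0.87 to −0.65). Ank3 had 431, 380 and 297 CPM and a ratio of −0.54 (−0.60 to −0.48). Ank2, which codes for ankyrin-B, had 571, 602 and 437 CPM and a ratio of −0.39 (−0.44 to −0.33). Its ectopic level was the lowest of the 3, while the 2 control levels were 0.08 (0.0026 to 0.15) apart on the log2 scale. Epb41l3, whose product 4.1B is a partner of the same skeleton, did not share this order: it had 386, 378 and 407 CPM and a ratio of 0.08 (0.02 to 0.13).

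The remaining adhesion genes had other orders. Ncam1 was highest in the control vOLCs, with 343 CPM against 247 CPM in the control dOLCs and 164 CPM in the ectopic vOLCs. The ratio of ectopic over control vOLCs, −1.06 (−1.17 to −0.95), was therefore larger in size than that to control dOLCs, −0.59 (−0.67 to −0.50), and control vOLCs exceeded control dOLCs by 0.47 (0.37 to 0.58). Cadm4 had 284, 333 and 261 CPM and Jam3 579, 664 and 576 CPM, both highest in the control vOLCs. Their ratios of ectopic vOLCs over control dOLCs were −0.12 (−0.19 to −0.05) and −0.01 (−0.05 to 0.04). Nrcam did not pass the filter in MOL5/6, where 62, 5 and 20 UMIs were counted.

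**Figure D2:**
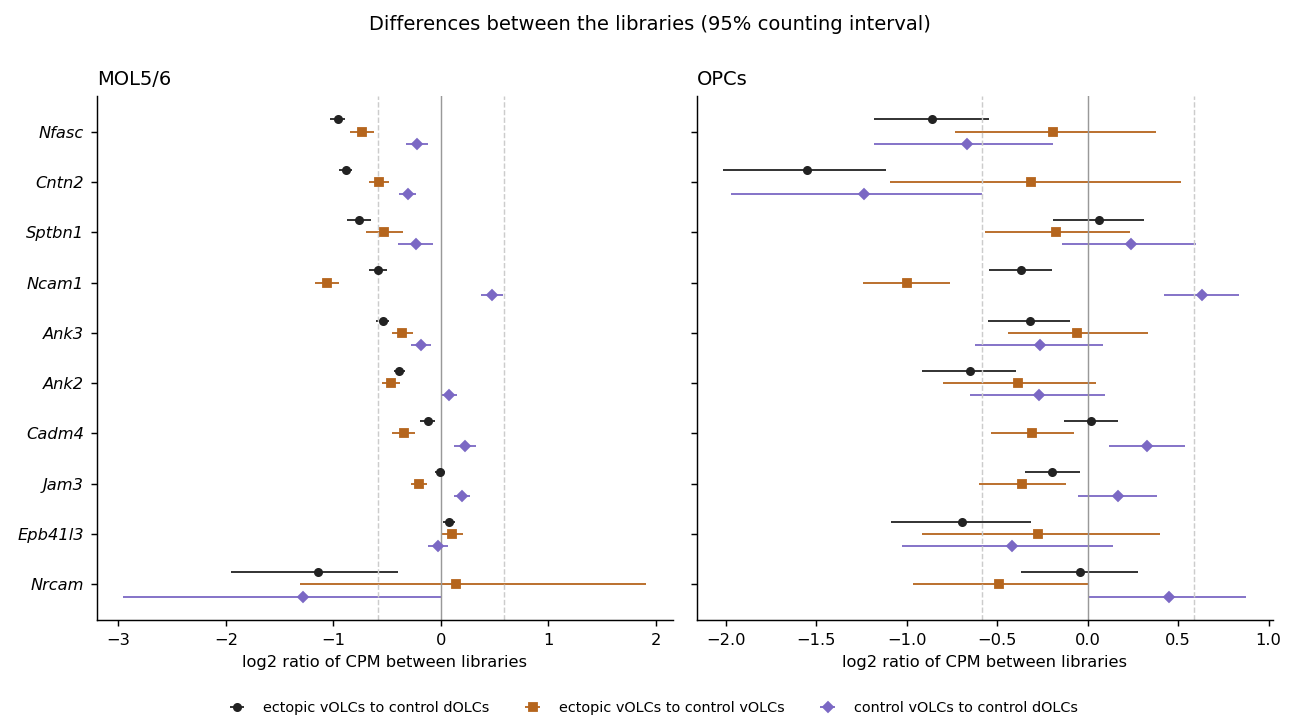
Log2 ratio of CPM (horizontal axis) of each gene (rows) in MOL5/6 (left) and OPCs (right) for the 3 pairs of libraries, with 95% counting intervals. Dashed lines mark a 1.5-fold difference. In MOL5/6 the ratio of ectopic vOLCs over control dOLCs runs from −0.96 for Nfasc to 0.08 for Epb41l3 among the 9 genes past the filter, and Ncam1 has the lowest ratio to the control vOLCs, −1.06.

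Of the 9 genes past the filter in MOL5/6, 4 (Nfasc, Cntn2, Sptbn1 and Ncam1) were at least 1.5-fold lower in the ectopic vOLCs than in the control dOLCs, beside 11.5% of the 5218 genes that passed, and 0 were 1.5-fold higher, beside 1.13%. Ncam1, at −0.59, lay at the limit, and was at −0.44 with TMM factors, −0.43 with size factors and −0.34 in cells with 3000 to 6000 UMIs. Of these 4, Sptbn1 was in none of the gene lists of the study that were read here. The median log2 ratio was −0.54 for the 9 genes and −0.03 over all genes past the filter. Against the control vOLCs, 2 genes (Nfasc and Ncam1) were 1.5-fold lower beside 12.4% of all, and 0 were higher beside 1.46%, with medians of −0.46 and −0.02. This count of lower genes rose under some of the alternatives given below and fell under others. Between the 2 control libraries no gene reached 1.5-fold in either direction, where 0.731% of all genes were lower and 2.56% higher, and the medians were both −0.03.

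Several of these genes were also lower in the other mature classes. Of the 9 genes past the filter, 4 were at least 1.5-fold lower in MOL2, beside 644 of 5910 genes. In MOL1 4 were, beside 506 of 3519 genes. In MOL2a 4 were lower beside 999 of 5266 genes, and in MOL2b 0 beside 445 of 5311. None was 1.5-fold higher, beside 139 of all genes in MOL2 and 178 in MOL1. In MOL2 the log2 ratio of ectopic vOLCs over control dOLCs was −0.79 (−1.01 to −0.58) for Nfasc, −0.71 (−0.85 to −0.57) for Cntn2, −0.70 (−0.98 to −0.42) for Sptbn1 and −0.65 (−0.83 to −0.47) for Ank3, with 0.17 (0.04 to 0.29) for Epb41l3. MOL2 joins MOL2a (498 cells in the control dOLCs and 115 in the ectopic vOLCs) and MOL2b (235 and 106 cells), and ratios differed between the 2. Nfasc was at −1.002 (−1.32 to −0.70) in MOL2a and −0.47 (−0.78 to −0.17) in MOL2b, and Ank3 at −1.11 (−1.40 to −0.82) and −0.23 (−0.47 to 0.0033). Epb41l3 had opposite signs, with −0.14 (−0.35 to 0.07) in MOL2a and 0.27 (0.11 to 0.42) in MOL2b. In MOL1 the ratio of ectopic vOLCs over control dOLCs was −1.02 (−1.54 to −0.53) for Sptbn1, −0.79 (−1.10 to −0.50) for Nfasc and −0.67 (−0.90 to −0.44) for Cntn2. The MOL1 cells numbered 242 and 93. Ncam1 in MOL2 had 233 CPM in the control dOLCs, 332 CPM in the control vOLCs and 175 CPM in the ectopic vOLCs, which is its order in MOL5/6. In the control vOLCs 179 of the MOL2 cells were MOL2a and 6 MOL2b. Within MOL2a Ncam1 had 267, 336 and 211 CPM, and the ratio of ectopic over control vOLCs was −0.68 (−0.96 to −0.40), against −0.93 (−1.15 to −0.70) in MOL2. Other sums differed between the MOL2 cells of the libraries: 8 stress and immediate early genes were at 288, 228 and 166 CPM and 2 MOL2 markers at 462, 1438 and 773 CPM in the control dOLCs, control vOLCs and ectopic vOLCs. Their part in these ratios was not tested.

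Within MOL5/6 the genes differed between the 4 subclusters, and the libraries differed in how many cells of each they held. Subclusters a and d made up 23.9% of the MOL5/6 cells of the control dOLCs, 48.5% of those of the control vOLCs and 94.3% of those of the ectopic vOLCs. In each library the levels of Nfasc, Cntn2, Ank3 and Ncam1 were lower in a and d than in b and c. For Nfasc, b and c together measured 436 CPM and a and d 247 CPM in the control dOLCs, 435 and 227 CPM in the control vOLCs, and 387 and 184 CPM in the ectopic vOLCs. The log2 ratio of b and c to a and d was 0.82 (0.73 to 0.91), 0.94 (0.75 to 1.13) and 1.07 (0.84 to 1.30). For Cntn2 it was 0.77 (0.70 to 0.84), 0.84 (0.69 to 1.00) and 0.90 (0.72 to 1.08). For Ank3 it was 0.58, 0.81 and 0.73, and for Ncam1 0.58, 0.56 and 0.77. Jam3 had the opposite sign, with −0.26 (−0.32 to −0.20) in the control dOLCs and −0.31 (−0.44 to −0.17) in the control vOLCs. These pairs of subclusters were chosen after their levels were seen, and the clusters were made with these genes.

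Within the same subclusters, the ratios of ectopic vOLCs over control dOLCs were nearer 0 for Nfasc, Cntn2, Sptbn1, Ncam1, Ank3 and Ank2, and farther from 0 for Jam3. In a and d together, the ratio of ectopic vOLCs over control dOLCs was −0.43 (−0.53 to −0.32) for Nfasc, −0.38 (−0.46 to −0.30) for Cntn2, −0.37 (−0.52 to −0.21) for Sptbn1, −0.21 (−0.33 to −0.09) for Ncam1, −0.16 (−0.25 to −0.07) for Ank3 and −0.10 (−0.17 to −0.02) for Ank2. In b and c together, where the ectopic library held 105 cells, it was −0.17 (−0.40 to 0.04) for Nfasc, −0.24 (−0.43 to −0.07) for Cntn2 and −0.47 (−0.88 to −0.08) for Sptbn1. Jam3 was at −0.16 (−0.22 to −0.10) in a and d and at −0.39 (−0.60 to −0.18) in b and c, against −0.01 over all MOL5/6 cells. Between the controls, Ank2 was at 0.20 (0.08 to 0.31) and 0.15 (0.05 to 0.25) in the same pairs. No gene of the 9 was 1.5-fold lower in either pair of subclusters, or in the mean of the ratios within the 4 subclusters, for which the median was −0.11. Of all genes past the filter, 2.72% were 1.5-fold lower in a and d, 8.74% in b and c and 4.87% by that mean, so that a count of 0 among 9 is near the share of all genes. The mean gives equal weight to MOL5/6b, where the ectopic library held 42 cells. For Ncam1 the control vOLCs had the highest level in both pairs. They exceeded control dOLCs by 0.61 (0.45 to 0.78) in a and d and by 0.59 (0.46 to 0.72) in b and c, and the ectopic vOLCs stood at −0.82 (−0.98 to −0.67) and −0.62 (−0.91 to −0.33) relative to the control vOLCs. Over the control dOLCs, Ncam1 in the ectopic vOLCs was at −0.03 (−0.30 to 0.23) in b and c. For Nfasc the ratio of the control libraries was −0.12 (−0.30 to 0.05) and −0.0032 (−0.13 to 0.12) in the same pairs.

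**Figure D3:**
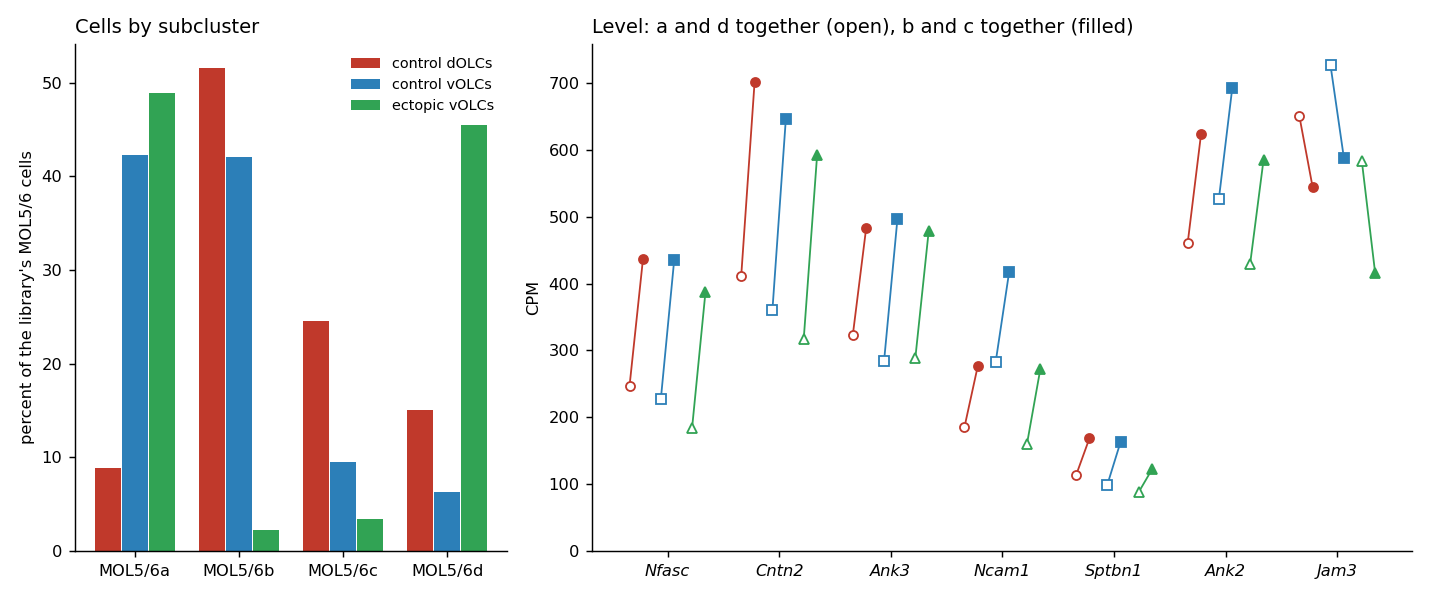
Left, the percent of each library's MOL5/6 cells (vertical axis) that fell into subclusters a to d. Right, the level in CPM of 7 of the genes in subclusters a and d together (open symbols) and b and c together (filled symbols), with a line for each library. The ectopic vOLCs had 94.3% of their MOL5/6 cells in a and d, and the level of Nfasc in a and d was 247, 227 and 184 CPM against 436, 435 and 387 CPM in b and c.

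The size of the difference also went with the length of a gene's transcripts. Over all genes past the filter in MOL5/6 that had an annotated length (5082 of 5218), the median log2 ratio of ectopic vOLCs over control dOLCs was 0.07 in the shortest twentieth (up to 949 bases) and −0.59 in the longest (8443 bases and more), and 50.6% of the genes in the longest twentieth were at least 1.5-fold lower. Ank2, with a longest transcript of 14305 bases, and Ank3 (9963), Nfasc (9739) and Sptbn1 (9107) are in that longest group, and Cntn2 (7334), Ncam1 (6564) and Nrcam (6275) are close to it. Epb41l3 (4073), Cadm4 (2161) and Jam3 (1942) are shorter. Less the median of genes of like length, the ratio was −0.37 for Nfasc, −0.40 for Cntn2, −0.16 for Sptbn1 and −0.18 for Ncam1, and it was 0.21 for Ank2 and 0.05 for Ank3. Of the shorter genes, Cadm4 was at −0.25, Jam3 at −0.14 and Epb41l3 at 0.19. With this correction the median of the 9 genes was −0.16, and none was 1.5-fold lower, beside 3.35% of all genes. The part of length and of the subclusters in the differences was not tested.

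**Figure D4:**
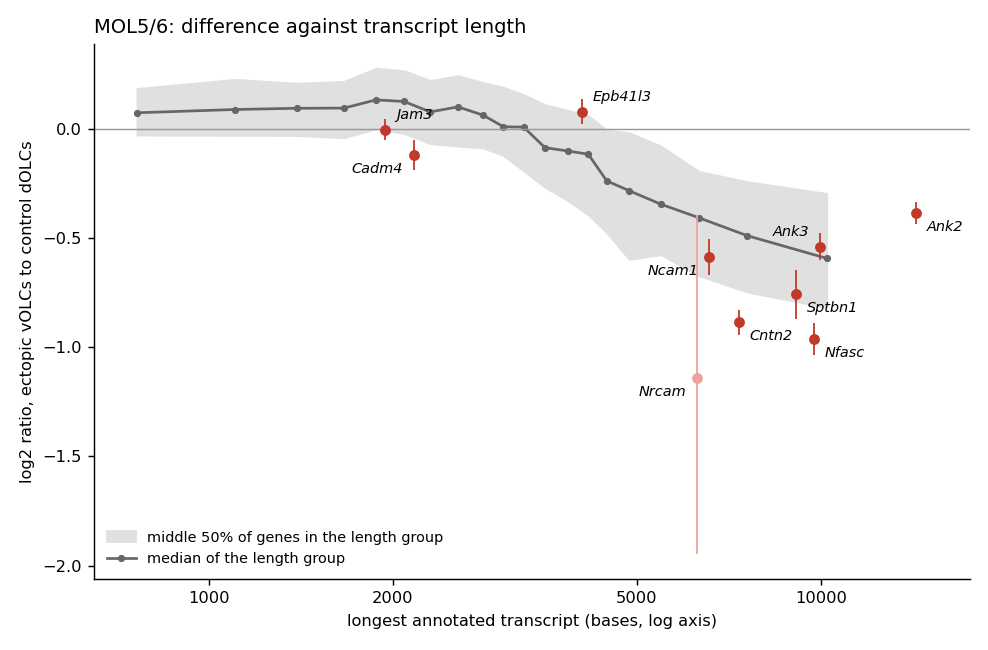
Log2 ratio of ectopic vOLCs over control dOLCs in MOL5/6 (vertical axis) against the longest annotated transcript in bases (horizontal log axis). The grey line and band are the median and the middle 50% of genes in 20 groups of like length, and points are the 10 genes with 95% counting intervals (Nrcam, pale, did not pass the filter). Nfasc, Cntn2, Cadm4 and, narrowly, Jam3 lie below the band of genes of their length, Epb41l3 lies above it, and Ank2 lies at −0.39, above the median of −0.59 of the longest group.

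In OPCs the differences had another make-up. Cntn2 was at 120 CPM (314 UMIs) in the control dOLCs, 50.7 CPM (20 UMIs) in the control vOLCs and 40.8 CPM (49 UMIs) in the ectopic vOLCs. The log2 ratio to the control dOLCs was −1.55 (−2.02 to −1.12) for the ectopic and −1.24 (−1.97 to −0.59) for the control vOLCs, and the 2 vOLC libraries differed by −0.31 (−1.09 to 0.51). Nfasc had 157, 98.8 and 86.5 CPM, Epb41l3 98.3, 73.5 and 60.7 CPM, and Ank2 211, 175 and 134 CPM, each highest in the control dOLCs. Their ratios of ectopic vOLCs over control dOLCs were −0.86 (−1.18 to −0.55), −0.69 (−1.09 to −0.31) and −0.65 (−0.92 to −0.40).

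Levels of mature oligodendrocyte transcripts in OPCs were also highest in the control dOLCs. The 7 oligodendrocyte markers (Mbp, Mog, Mag, Mobp, Cnp, Mal and Cldn11) summed to 6795 CPM in the OPCs of the control dOLCs, 3197 CPM in those of the control vOLCs and 3279 CPM in those of the ectopic vOLCs, and none was at 0 in any of them. That was 22.2%, 10.2% and 9.41% of their summed level in MOL5/6 of the same library. The level of Cntn2 in OPCs was 19.7% (17.5% to 22.1%), 10.3% (6.30% to 16.0%) and 12.4% (9.17% to 16.5%) of that in MOL5/6. Epb41l3 gave 25.5%, 19.4% and 14.9%. The part of mature transcripts in the OPC differences was not tested. Ank2 gave 36.9%, 29.0% and 30.7%. Nfasc gave 41.8% (37.8% to 46.2%), 30.8% (21.7% to 42.4%) and 44.9% (36.5% to 54.7%). These percents also move with the MOL5/6 level, which for Nfasc was itself lower in the ectopic vOLCs, by −0.96 on the log2 scale. Ncam1 gave 160.2%, 179% and 186%, and Nrcam 2398%, 7989% and 5145%.

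**Figure D5:**
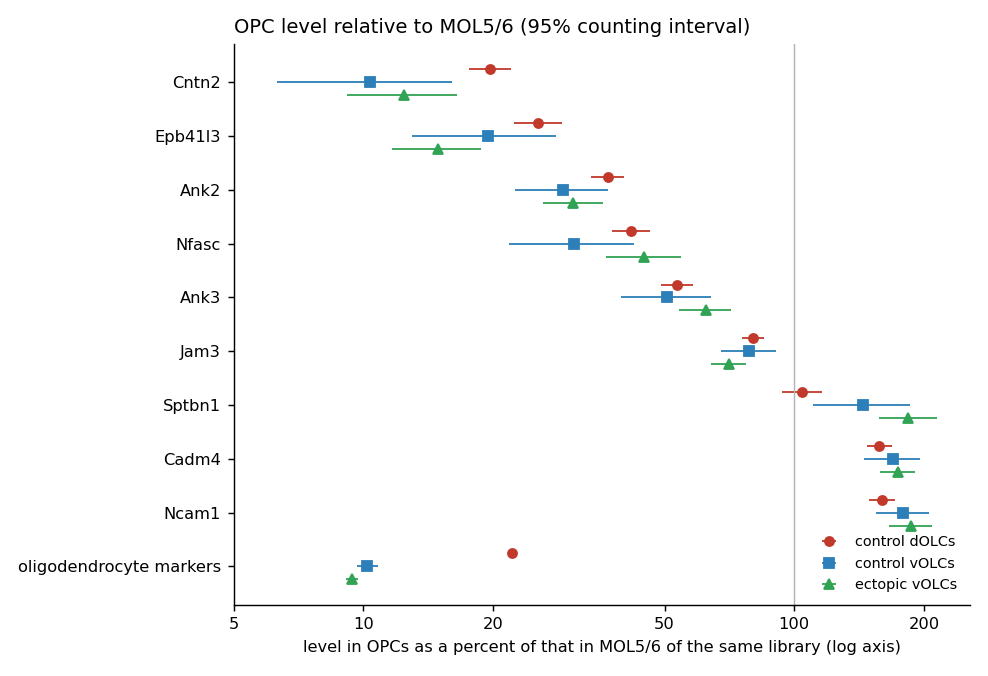
Level in OPCs as a percent of the level in MOL5/6 of the same library (horizontal log axis) for 9 of the genes and for the sum of 7 oligodendrocyte markers, with 95% counting intervals. The markers stand at 22.2% in the control dOLCs and at 10.2% and 9.41% in the control and ectopic vOLCs, and Cntn2 at 19.7%, 10.3% and 12.4%.

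Ncam1 in OPCs repeated its order in the mature cells. It had 396 CPM (1039 UMIs) in the control dOLCs, 613 CPM (242 UMIs) in the control vOLCs and 306 CPM (368 UMIs) in the ectopic vOLCs. The ratio of ectopic over control vOLCs was −1.002 (−1.24 to −0.76), that of control vOLCs to control dOLCs 0.63 (0.42 to 0.83), and that of ectopic vOLCs over control dOLCs −0.37 (−0.55 to −0.20). Cadm4 was also highest in the control vOLCs, with 448, 562 and 454 CPM and ratios of −0.31 (−0.54 to −0.08), 0.33 (0.11 to 0.54) and 0.02 (−0.13 to 0.17) in the same order. Nrcam had 100.2, 137 and 97.3 CPM, and its ratio of ectopic over control vOLCs was −0.49 (−0.97 to 0.0018). The 8 neuron markers, given because neurons also express Ncam1 and Nrcam, summed to 1135, 1307 and 1217 CPM in the OPCs, where Rbfox3, Slc17a7 and Nefl were at 0 in both vOLC libraries, and to 23.5, 12.0 and 15.1 CPM in MOL5/6. Without the cells that had a UMI of Snap25, Syt1 or Rbfox3, the ratio of Ncam1 in ectopic to control vOLCs was −0.88, and that of the control libraries was 0.53, which is under 1.5-fold.

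Sptbn1, lower in the ectopic MOL5/6, was not lower in the ectopic OPCs: it had 157, 185 and 164 CPM and a ratio of 0.06 (−0.19 to 0.31) to the control dOLCs. Ank3 had −0.32 (−0.55 to −0.10) and Jam3 −0.20 (−0.35 to −0.04). In all, 4 of the 10 genes were at least 1.5-fold lower in ectopic than in control dorsal OPCs beside 5.79% of 6110 genes, and 0 were higher beside 5.34%. With each cell thinned to 1000 UMIs, 2 were lower beside 6.21% of all genes, and Ank2 was at −0.53. Against the control vOLCs, 1 gene (Ncam1) was lower beside 9.77% of all and 0 were higher beside 18%, and after thinning Ncam1 was at −0.53 and no gene was counted, beside 8.05% of all. Between the control libraries 2 (Cntn2 and Nfasc) were lower beside 12.1% and 1 (Ncam1) was higher beside 10.8%. The medians over the 10 genes were −0.35, −0.31 and −0.05, and those over all genes 0.08, 0.04 and 0.03.

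Other genes of these domains, glial and axonal, were described from 3 lists, whose counts stand beside 11.5% of all genes lower and 1.13% higher in MOL5/6. Of 20 listed genes of the paranode and node, 9 passed the filter in MOL5/6, of which 3 were at least 1.5-fold lower in ectopic vOLCs than in the dorsal controls and 0 higher, with a median of −0.32. Of 12 genes of the juxtaparanode 5 passed, 3 were lower and 0 higher, with a median of −0.72. Within subclusters the median of this list was 0.02 in MOL5/6a (3 genes past the filter), −0.0068 in MOL5/6c and −0.14 in MOL5/6d (5 genes each). In the same subclusters that of the paranode and node list was −0.04, −0.05 and −0.08, and that of the list given next −0.05, −0.09 and −0.07. Of 18 genes of the internode and of tight junctions 13 passed, 2 were lower and 0 higher, with a median of −0.17, a share of genes lower that is close to that of all genes. The lowest ratios were those of Bcan, which codes for the matrix protein brevican (−1.07, −1.33 to −0.80), Dlg1, a scaffold protein (−0.92, −1.09 to −0.76), and Cntn1, the contactin of the paranode (−0.90, −1.15 to −0.65). Between the controls, Bcan was at −1.25 (−1.77 to −0.78) and Cntn1 at −0.63 (−1.05 to −0.24), and Dlg1 at −0.08 (−0.31 to 0.14). Bcan had 13.4 CPM in the control vOLCs and 15.2 CPM in the ectopic vOLCs. Of the paranode and node list, 3 of 9 genes were 1.5-fold lower in control vOLCs than in control dOLCs beside 0.731% of all genes and 1 (Omg, 0.80) was higher beside 2.56%, and 0 of 7 were lower in ectopic than in control vOLCs beside 12.4%. The highest ratios of ectopic vOLCs over control dOLCs were those of Omg (0.35, 0.26 to 0.44), Mog (0.34, 0.32 to 0.36) and Cldn11, the claudin of myelin tight junctions (0.29, 0.28 to 0.31). Bcan and Cntn1 are abundant in OPCs, where their levels in the control dOLCs were 1714 and 1095 CPM. In MOL5/6 of that library each was at 31.9 CPM. Against the control vOLCs, Cntn1 did not pass the filter in MOL5/6, with a ratio of −0.26 (−0.69 to 0.18) for the ectopic vOLCs.

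In OPCs, 11, 5 and 16 genes of these lists passed, and 1, 2 and 5 of them were at least 1.5-fold lower in ectopic vOLCs than in the dorsal controls, with 0 higher and medians of −0.02, −0.35 and −0.17, where 5.79% of all genes were lower and 5.34% higher. The lowest were Hapln2 (−1.66, −2.10 to −1.25), Mag (−1.42) and Tspan2 (−1.41). Hapln2, Mag and Tspan2 are genes of mature myelinating cells. Mag, Cldn11 (−1.19) and Mog (−1.02), counted as lower in the internode list, are also among the 7 oligodendrocyte markers given above. The highest were Mpp6 (0.38), Adam23 (0.28) and Jam2 (0.24).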

How the data were processed

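Single-cell RNA-seq data of 3 libraries were used (10x Genomics 3′ kit v2). The authors' count table holds raw UMI counts per gene and cell barcode, and the authors' annotation gives each kept cell its library and cluster. The annotation also holds the percent of mitochondrial counts, as deposited by the authors. Per the submitters' processing notes, Cell Ranger 2.1.1 and Seurat 3 were used with mm10; the annotation release is not given in the sources used here. The authors kept cells with more than 200 and fewer than 3000 genes and at most 15% mitochondrial counts, and this filter left 9291 barcodes, the number annotated. Per the study's methods, mice of both sexes were used and another cohort was left out by the authors for batch effects, which they ascribe with reserve to stress in the sort. Doublets were not removed here. Of the series, 4 P0 samples were not analysed here.

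UMI counts were summed over the cells of each cluster and library and divided by their total (CPM). Ratios between libraries carry conditional exact binomial intervals, and levels exact Poisson intervals, at 95%. With 1 library per condition no test could be made, and a fold of 1.5 served for counts. A gene with a count of 0 could have up to 3 counts. Depth was 23078181, 4846391 and 14293675 UMIs in control dOLCs, control vOLCs and ectopic vOLCs. The steps were tested on simulated data. Named are the 10 genes, the 3 highest and 3 lowest partner genes of each class, and the 3 genes most alike in course for each gene, of which some are left out. The genes, lists and cluster pairs were chosen with earlier results of these data known. Python 3.11.15, numpy 2.4.6, scipy 1.17.1, pandas 2.3.3 and, for alternative scalings, edgeR 4.0.16 and DESeq2 1.42.0 were used. Transcript lengths came from GENCODE M21. UMIs of genes annotated on the other strand within one of the 10, such as Gm16958 in Ank2 (32, 6 and 40 UMIs in MOL5/6), are counted apart. 1 gene of the oligodendrocyte marker list is not reported here, and sums over that list leave it out.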

Additional observations from a re-analysis of the deposited data

Results flagged for a closer look

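Epb41l3, which codes for the cytoskeletal linker 4.1B, differed in opposite directions in the mature cells and in the precursors when ectopic vOLCs were set against control dOLCs. The log2 ratio was 0.077 in MOL5/6 (interval 0.02 to 0.13) and −0.69 in OPCs (−1.09 to −0.31). The difference between the classes was not tested, since each condition is 1 library. The MOL5/6 value was negative in 3 of the alternatives given below, and the OPC value stands on 73 UMIs against 258, beside oligodendrocyte markers that were at 6795 CPM in the OPCs of the control dOLCs and 3279 CPM in those of the ectopic vOLCs.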

How the results depend on the processing

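No paired analysis was possible because only 1 library stands for a condition, and for the same reason no replicate was left out. Of 210 summary values (medians and counts over the genes) under an alternative, 173 stayed within the limits set for them and 37 moved. The medians between the controls, near 0, also turned sign within those limits, to at most 0.040 in MOL5/6 (b and c) and 0.16 in OPCs (after thinning).

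In MOL5/6, ectopic vOLCs to control dOLCs, the median of −0.54 was −0.39 with TMM factors and −0.38 with median-of-ratios size factors (which shift every gene by 0.15 and 0.16), −0.61 after thinning each cell to 1000 UMIs, −0.43 in cells with 3000 to 6000 UMIs, −0.16 less the median of genes of like length, −0.11 as the mean within subclusters, −0.16 in subclusters a and d and −0.092 in b and c. The count of 4 genes 1.5-fold lower was 0 under the last 4, of which the pairs a and d, and b and c, were added after seeing the data. Against control vOLCs the median of −0.46 was −0.62 after thinning, −0.15 for length, −0.21 within subclusters, −0.29 in a and d and −0.17 in b and c, and the count of 2 lower was 4 as the mean over cells, 5 after thinning, 4 at 3000 to 6000 UMIs and 1 for length, within subclusters and in each pair. Of all genes, 14.4%, 10.6% and 15.8% were lower in the first 3 of these. Between the controls the median of −0.03 was −0.14 after thinning, the count lower was 1 with no filter (Nrcam), and the count higher was 1 at 3000 to 6000 UMIs and in each pair of subclusters.

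In OPCs, the count of 4 lower against control dOLCs was 2 after thinning, and the count of 1 lower against control vOLCs was 0 after thinning and 2 at 3000 to 6000 UMIs. Between the controls the count of 2 lower was 1 after thinning and at 3000 to 6000 UMIs, and the count of 1 higher was 2 at 3000 to 6000 UMIs and 0 for length or without cells with a UMI of Snap25, Syt1 or Rbfox3.

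Single genes whose interval left out 0 and whose sign turned were in MOL5/6; others, Jam3 among them, turned around 0 there and in OPCs. For ectopic vOLCs to control dOLCs, Cadm4 was 0.026 with TMM, 0.040 with size factors, 0.0027 at 3000 to 6000 UMIs, 0.069 within subclusters and 0.22 in b and c. Epb41l3 was −0.12 at 3000 to 6000 UMIs, −0.063 within subclusters and −0.037 in a and d, while its ratios in MOL5/6a, c and d were 0.013, 0.054 and 0.032, and the ectopic library held 42 cells of MOL5/6b. Ank2 was 0.21 and Ank3 0.053 for length, and Nrcam was 1.05 in b and c, on 4 UMIs. For ectopic to control vOLCs, Epb41l3 was −0.035 at 3000 to 6000 UMIs and −0.11 within subclusters, and Ank3 was 0.10 for length and 0.022 in a and d. Between the controls, Jam3 was −0.018 within subclusters and Ank3 0.040 in b and c. The cause of these moves was not tested. Depth limits the OPCs of the control vOLCs (121 cells), where Cntn2 had 20 UMIs and Epb41l3 29.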

Other observations

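In MOL5/6, the 8 stress and immediate early genes summed to 239, 205 and 204 CPM in the control dOLCs, control vOLCs and ectopic vOLCs, the 7 astrocyte markers to 268, 241 and 227 CPM, the 7 microglia markers to 31.4, 35.6 and 29.9 CPM, the 2 MOL2 markers to 25.0, 60.3 and 28.4 CPM and the 7 vascular markers to 2.90, 6.16 and 2.08 CPM. The 8 neuron markers, given above, were at 23.5, 12.0 and 15.1 CPM. The 6 markers of committed and newly formed cells were at 281, 273 and 222 CPM in MOL5/6 and at 502, 559 and 458 CPM in MOL2. Their part in the level of Nfasc, which peaks in COP/NFOL/MFOLa, was not tested. In OPCs the stress and immediate early genes were at 644, 537 and 867 CPM, highest in the ectopic vOLCs. The 6 markers of MOL5/6 summed to 42874, 55166 and 51143 CPM in MOL5/6.

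Among the partner genes, Omg, which codes for a myelin glycoprotein of the node region, had an order unlike that of the 10 genes in MOL5/6: 134 CPM in the control dOLCs, 233 CPM in the control vOLCs and 170.2 CPM in the ectopic vOLCs. In OPCs it had 195, 307 and 226 CPM, the same order. These values have no replicate.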
